A study of Mus musculus with 81 samples.

Results

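The 2 largest olfactory receptor gene clusters of the mouse genome were examined for the histone variants macroH2A1 (mH2A1) and macroH2A2 (mH2A2) in area CA1 of the hippocampus. Domains were taken from every list of broad macroH2A domains when they overlapped a fixed stretch of 5.5 Mb on chromosome 2, around the receptor genes at chr2:85330779-90403897, or of 6.5 Mb on chromosome 7, around those at chr7:102476579-108894420 (mm10 genome). These stretches held 2841 and 7335 domains, 10176 of the 2262155 domains in all 30 lists (0.450%). They held 3.10% of the domains of chromosomes 2 and 7 and make up 3.66% of the length of these chromosomes. All mice were young adult C57BL/6J males without any deleted gene. Chromatin digested with micrococcal nuclease was precipitated from whole CA1 of untrained mice, which stayed in the home cage, and of trained mice, which received contextual fear conditioning with foot-shocks 30 min, 1 h or 6 h earlier. Each list came from 1 mouse: mH2A1 from 3 untrained and 2 trained mice at 30 min, 2 and 2 at 1 h and 5 and 5 at 6 h, and mH2A2 from 3 and 2 at 30 min and 3 and 3 at 1 h. At 30 min both variants came from the same 5 mice with the same input libraries. The lists held 51899 to 95952 domains each, with 12.2 to 44.5 M ChIP reads (M, mega) and 7.46 to 32.8 M input reads inside domains, which are part of each library and not its depth. RNA was sequenced from CA1 infected with an AAV that carried an shRNA against H2afy (the mH2A1 gene), H2afy2 (the mH2A2 gene) or a scramble sequence, in untrained mice (3 per group) and in a second experiment with shH2afy or scramble in mice left untrained or trained 1 h before (3 per group), and from 3 untrained and 2 trained mice without virus. The shRNA was driven by the U6 promoter in any infected cell, and the tissue was bulk.

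MacroH2A variants replace canonical H2A in nucleosomes and carry a large non-histone macro domain. They are best known from the inactive X chromosome, and lie in wide domains over transcriptionally silent chromatin. Olfactory receptor genes code for odorant-binding membrane receptors and stand in long tandem arrays. Each olfactory sensory neuron transcribes 1 allele of 1 receptor gene and keeps the other receptor genes in compact heterochromatin; neurons of CA1 are not olfactory sensory neurons.

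By annotation both stretches were receptor gene clusters. The chromosome 2 stretch held 287 olfactory receptor genes, 227 protein-coding genes and 60 pseudogenes, from Olfr987 to Olfr1274-ps, beside 13 other protein-coding genes. The chromosome 7 stretch held 236 olfactory receptor genes, 197 protein-coding genes and 39 pseudogenes, from Olfr543 to Olfr519, beside 58 other protein-coding genes that include the beta-globin genes and a group of Trim genes. Together these are 523 of the 1407 genes named Olfr in GENCODE. Both stretches were poor in G and C: the GC content was 37.6% on chromosome 2 against 42.2% in the rest of that chromosome, and 40.1% on chromosome 7 against 43.2%. Repeats masked 46.4% and 43.7% of their bases, against 31.7% and 35.0% of the rest. Of all words of 100 bases, 9.08% in the chromosome 2 cluster occurred more than once on the chromosome against 4.44% in the rest, and 11.0% against 9.31% on chromosome 7, so that reads there can be harder to place.

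The sequences below come from the GRCm38.p6 assembly, the same build as mm10, and are examples of stretches with and without called domains. Each shows the middle 200 bases of the longest run of bins that lay in domains of every mH2A1 list or of none, on the plus strand, with CG dinucleotides in capitals. The covered run on chromosome 2 lay in an intron of P2rx3, an ATP-gated ion channel, at the border of the stretch and outside the receptor array (window shown, chr2:85002901-85003100). The run without a domain overlapped exons of Olfr1506 and Olfr142 (window shown, chr2:90212401-90212600).
mH2A1 in every list, chromosome 2: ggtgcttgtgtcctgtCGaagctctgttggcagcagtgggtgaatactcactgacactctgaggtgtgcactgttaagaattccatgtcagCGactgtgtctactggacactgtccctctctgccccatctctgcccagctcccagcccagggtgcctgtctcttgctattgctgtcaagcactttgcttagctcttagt
mH2A1 in no list, chromosome 2: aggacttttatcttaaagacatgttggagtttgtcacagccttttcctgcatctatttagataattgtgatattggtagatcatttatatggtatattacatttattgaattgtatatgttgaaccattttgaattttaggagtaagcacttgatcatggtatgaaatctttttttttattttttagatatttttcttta
On chromosome 7 the run without a domain lay at Gm4070 (window shown, chr7:105895001-105895200).
mH2A1 in no list, chromosome 7: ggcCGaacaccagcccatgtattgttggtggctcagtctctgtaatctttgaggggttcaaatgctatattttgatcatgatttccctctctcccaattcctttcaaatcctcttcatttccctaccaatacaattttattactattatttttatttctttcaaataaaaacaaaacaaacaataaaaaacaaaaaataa
The GC content of these windows was 53.5% and 26.0% on chromosome 2 and 32.0% on chromosome 7, with 2, 0 and 1 CG dinucleotides. The windows are short pieces of their runs: the whole covered run of chromosome 2 had 50.5% GC, and the whole runs without a domain had 41.6% on chromosome 2 and 39.3% on chromosome 7. In these 2 runs without a domain 89.8% and 86.3% of 100-base words were repeated, and 0% in the covered run. A lack of domains there cannot be told apart from reads that could not be placed.

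Promoters of receptor genes, from 250 bases before to 50 bases after the start in RefSeq, were shown for the gene whose promoter lay in domains of the most lists in each cluster and for the one without a domain that stood nearest to the middle of the cluster. Capitals mark TAATTA, the core that many homeodomain factors bind, and TATAAA on either strand. Olfr140 (chr2:90052273-90052572, minus strand) lay in domains of 10 of 30 lists and Olfr1141 (chr2:87753942-87754241, minus strand) in none. Olfr550 (chr7:102578219-102578518, plus strand) lay in domains of 23 lists and Olfr690 (chr7:105330229-105330528, minus strand) in none.
Olfr140 promoter: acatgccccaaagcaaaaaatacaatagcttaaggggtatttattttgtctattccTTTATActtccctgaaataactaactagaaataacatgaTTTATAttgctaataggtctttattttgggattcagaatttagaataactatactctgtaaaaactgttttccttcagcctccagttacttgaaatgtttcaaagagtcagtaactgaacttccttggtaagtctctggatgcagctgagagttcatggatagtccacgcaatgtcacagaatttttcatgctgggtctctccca
Olfr1141 promoter: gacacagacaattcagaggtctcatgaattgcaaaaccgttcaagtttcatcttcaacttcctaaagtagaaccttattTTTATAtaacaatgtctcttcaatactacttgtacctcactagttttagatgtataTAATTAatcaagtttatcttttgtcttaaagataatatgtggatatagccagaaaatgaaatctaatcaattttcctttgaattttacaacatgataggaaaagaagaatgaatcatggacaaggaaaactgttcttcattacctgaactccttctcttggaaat
Olfr550 promoter: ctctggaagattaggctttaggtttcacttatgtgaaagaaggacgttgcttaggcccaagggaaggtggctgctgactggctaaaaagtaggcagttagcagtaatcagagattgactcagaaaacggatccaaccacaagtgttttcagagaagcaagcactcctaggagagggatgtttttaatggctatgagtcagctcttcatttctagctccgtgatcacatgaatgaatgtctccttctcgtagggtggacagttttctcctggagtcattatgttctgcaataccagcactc
Olfr690 promoter: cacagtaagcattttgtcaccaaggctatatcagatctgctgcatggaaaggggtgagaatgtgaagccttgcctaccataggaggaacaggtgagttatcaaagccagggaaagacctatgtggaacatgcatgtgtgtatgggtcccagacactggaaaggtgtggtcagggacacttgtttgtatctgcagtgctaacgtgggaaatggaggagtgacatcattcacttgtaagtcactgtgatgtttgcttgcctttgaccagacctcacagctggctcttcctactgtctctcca
The RefSeq table held 357 receptor promoters of the clusters. TAATTA, which reads the same on both strands, was in 19.3% of them and in 5.29% of all 32851 promoters, and TATAAA on either strand was in 50.1% against 13.6%. The receptor promoters had a median GC content of 33.7% against 52.7%. Of the 357, 214 lay in no domain of any list, 136 in domains of 1 to 15 lists and 7 in domains of more than 15 of the 30 lists, and their median GC content was 32.3%, 35.8% and 43.0%. TAATTA was in 23.8%, 13.2% and none of these, with no test, and a match of letters says nothing of a factor.

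The first question was how much of the clusters lay in macroH2A domains. Cover, the percentage of bases inside called domains, was low in both clusters for mH2A1 and lower on chromosome 2 than on chromosome 7. On chromosome 2, mH2A1 covered 7.80%, 7.47% and 7.16% in the untrained mice of the 30 min experiment and 11.9% and 4.87% in the trained mice. At 1 h it covered 5.06% and 9.34% in untrained mice and 3.88% and 4.06% in trained mice. At 6 h the 5 untrained mice had 4.66%, 4.95%, 5.20%, 4.69% and 4.55% and the 5 trained mice 4.66%, 5.27%, 4.32%, 4.64% and 4.32%. Of these the 6 h lists were the most alike and lay below the 30 min lists except for 1 trained mouse of 30 min. The rest of chromosome 2 had between 13.3% and 27.8% in the same lists, so that every list was lower inside the cluster.

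On chromosome 7, mH2A1 covered 13.8%, 13.1% and 16.0% of the cluster in untrained and 19.1% and 19.5% in trained mice at 30 min. It covered 9.78% and 15.7% in untrained and 8.03% and 8.81% in trained mice at 1 h. At 6 h the values were 10.4%, 9.14%, 9.78%, 10.6% and 9.50% in untrained and 8.39%, 10.3%, 9.17%, 9.45% and 9.74% in trained mice. These values stood against 17.9% to 30.6% in the rest of the chromosome, and 1 list, a trained mouse of 30 min, was higher inside the cluster (19.1% against 17.9%).

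mH2A2 covered as little of the chromosome 2 cluster and more of the chromosome 7 cluster. On chromosome 2 the untrained mice had 8.08%, 6.93% and 4.01% and the trained mice 7.54% and 10.3% at 30 min, and at 1 h 13.1%, 3.86% and 3.49% in untrained and 2.86%, 4.29% and 5.76% in trained mice. On chromosome 7 they had 26.0%, 22.8% and 16.6% in untrained and 27.6% and 32.7% in trained mice at 30 min, and 22.4%, 11.3% and 11.1% in untrained and 8.09%, 10.6% and 15.8% in trained mice at 1 h. The first untrained mouse of 1 h stood above the other 5 lists of its time in both clusters. The rest of chromosome 2 ranged from 6.56% to 19.5% and that of chromosome 7 from 19.4% to 31.8%.

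**Figure D1:**
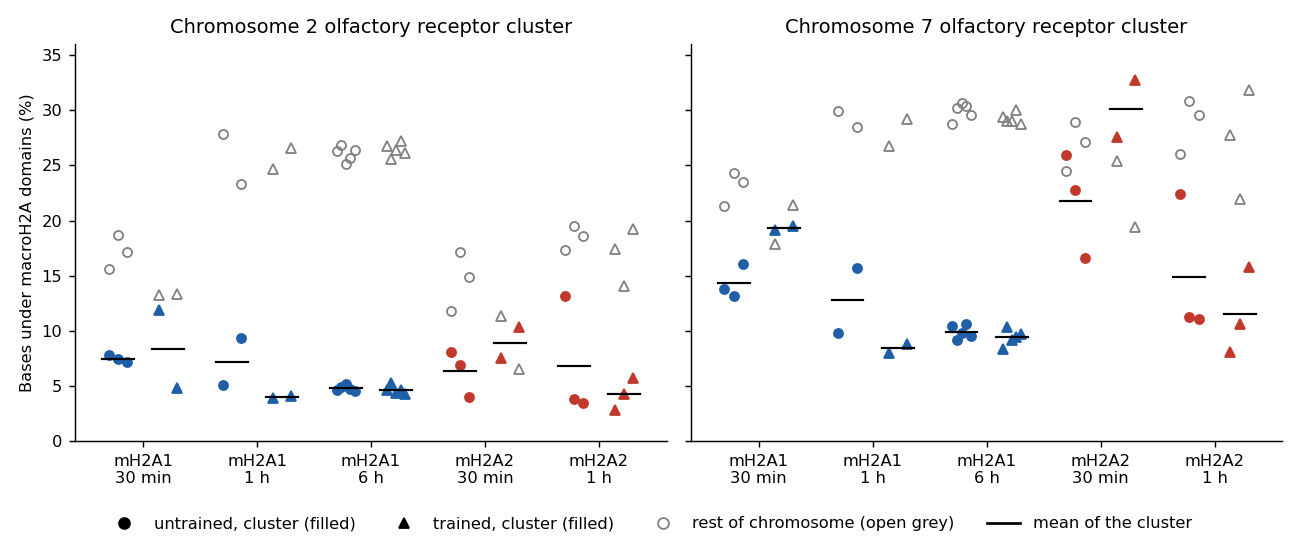
Percent of bases under domains in each list (y axis) for the cluster (filled, blue mH2A1, red mH2A2) and the rest of the same chromosome (open grey), with circles for untrained and triangles for trained mice and black bars at the means of the cluster. The 6 h mH2A1 lists of the chromosome 2 cluster sit between 4.32% and 5.27%, below all their open symbols.

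Over all lists, mH2A1 cover of the cluster minus that of the rest was -17.6 ± 6.57 percentage points on chromosome 2 (mean ± SD, n = 19, lower in 19 of 19 lists, adjusted p = 4e-05, two-sided sign-flip permutation test over lists) and -15.7 ± 6.99 points on chromosome 7 (lower in 18 of 19, adjusted p = 4e-05, the smallest value this test can give after adjustment). For mH2A2 it was -8.87 ± 6.14 points on chromosome 2 (n = 11, lower in 10, adjusted p = 0.00391, exact test) and -8.03 ± 10.6 points on chromosome 7 (lower in 8 of 11, adjusted p = 0.0352, exact test). The last call was lost when any 1 of 7 of the 11 lists was left out (-10.2 to -6.87 points over all lists left out in turn), and against all autosomes the difference was 3.67 points (adjusted p = 0.261, exact permutation test). Without the 2 untrained mH2A1 lists of 1 h, whose title names macroH2A1 while their antibody label names macroH2A2, the mH2A1 values were -17.5 and -15.6 points. Each gap was smaller at 30 min than later. For mH2A1 it was -7.75 ± 3.80 points on chromosome 2 and -5.36 ± 4.95 points on chromosome 7 at 30 min (n = 5), and -21.1 ± 2.22 and -19.4 ± 2.11 points at 1 h and 6 h together (n = 14). For mH2A2 it was -4.96 ± 5.93 and 0.058 ± 9.11 points at 30 min (n = 5) and -12.1 ± 4.39 and -14.8 ± 6.34 points at 1 h (n = 6). The later lists were lower than the 30 min lists by an exact permutation test for mH2A1 in both clusters (adjusted p = 0.000413) and for mH2A2 on chromosome 7 (adjusted p = 0.0260), and not for mH2A2 on chromosome 2 (adjusted p = 0.0693). Time cannot be told apart from the sequencing of separate experiments, nor, for mH2A1, from the change from an Abcam antibody at 30 min to a Thermo Fisher antibody later. mH2A2 was precipitated with 1 antibody at both times. The share of the genome in called domains differed as well. For mH2A1 it was 11.9% to 15.3% at 30 min, 20.8% to 23.7% at 1 h and 21.9% to 23.3% at 6 h. For mH2A2 it was 8.28% to 14.9% at 30 min and 11.4% to 16.4% at 1 h. A gap in points can widen when the rest gains cover, and this part was not tested.

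Cover followed GC content along both chromosomes, and the clusters lay where GC was low. Across 100-kb windows, which share libraries and mapping, mean mH2A1 cover and GC content had a Pearson r of 0.72 over the 55 windows of the chromosome 2 cluster and 0.67 over 1728 windows of its rest, and of 0.66 over 65 windows and 0.56 over 1353 windows on chromosome 7. For mH2A2 these were 0.65 and 0.85 on chromosome 2 and 0.72 and 0.74 on chromosome 7. In windows of 36 to 38% GC, which make up 34 of the 55 windows of the chromosome 2 cluster, mH2A1 covered 3.51% inside and 2.46% outside the cluster, higher inside in 10 of 19 lists, and mH2A2 5.05% against 1.33%, higher inside in 11 of 11 lists. By time, mH2A1 covered 6.55% against 1.54% at 30 min (higher in 5 of 5 lists), 2.97% against 3.64% at 1 h (1 of 4) and 2.21% against 2.44% at 6 h (4 of 10). In windows of 38 to 40% GC, 32 of the 65 windows of the chromosome 7 cluster, the values were 6.89% against 6.11% for mH2A1 (higher in 10 of 19 lists) and 16.0% against 10.9% for mH2A2 (10 of 11). Here too mH2A1 was higher inside at 30 min (13.5% against 7.85%, 5 of 5 lists) and not at 1 h (5.12% against 6.84%, 1 of 4) or 6 h (4.28% against 4.95%, 4 of 10). When the rest of the chromosome was weighted to the GC content of the cluster, an alternative chosen after the values were seen, the difference was 0.074 points for mH2A1 on chromosome 2 (adjusted p = 0.924, permutation test), -1.88 points on chromosome 7 (adjusted p = 0.121), 3.44 points for mH2A2 on chromosome 2 (higher in 11 of 11 lists, adjusted p = 0.00391, exact test) and 3.80 points on chromosome 7 (higher in 6 of 11, adjusted p = 0.121, exact test). Against this reference the 30 min lists lay above the rest in both clusters, by 4.50 ± 2.28 and 4.48 ± 2.33 points for mH2A1 and by 4.99 ± 2.23 and 9.59 ± 4.77 points for mH2A2 (n = 5 each, all lists higher), while the 6 h mH2A1 lists lay at -1.48 ± 0.774 and -4.11 ± 0.719 points (n = 10). In bins whose 100-base words occur once, with the whole rest as reference, the 4 differences were -18.9, -18.1, -9.56 and -8.72 points.

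**Figure D2:**
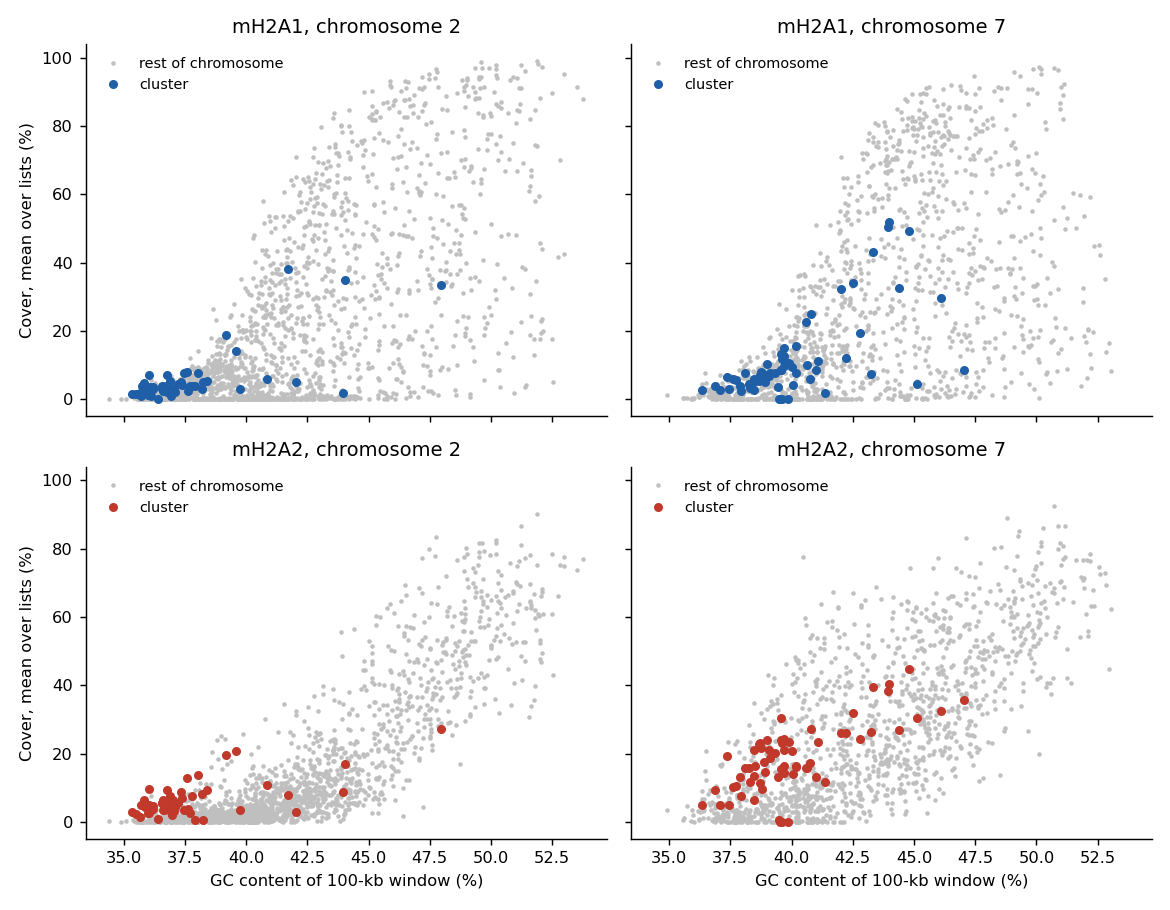
Mean cover over lists (y axis, percent) against GC content (x axis, percent) of each 100-kb window, with windows of the cluster coloured and those of the rest of the chromosome in grey. Most of the cluster's windows sit at the left, where grey windows are low too, and the red mH2A2 windows lie above the grey ones of 36 to 38% GC (5.05% against 1.33% on chromosome 2).

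Where macroH2A lay inside the clusters was also uneven. The bodies of olfactory receptor genes were the least covered class: on chromosome 2 mH2A1 covered 1.14% ± 1.196 of their bases (SD, n = 19), against 19.8% ± 4.05 of other protein-coding gene bodies and 6.52% ± 2.55 of bases outside both. mH2A2 covered 2.44% ± 1.60 of receptor gene bodies, 18.4% ± 9.31 of other gene bodies and 7.09% ± 3.93 outside both (n = 11). On chromosome 7 the order was the same, with 6.77% ± 3.43, 18.3% ± 3.58 and 11.1% ± 3.80 for mH2A1 and 13.9% ± 6.65, 27.6% ± 10.8 and 17.5% ± 8.32 for mH2A2. Receptor gene bodies were below the bases outside both classes in every list of each variant and cluster, by 5.37, 4.65, 4.36 and 3.60 points on average for mH2A1 and mH2A2 on chromosome 2 and mH2A1 and mH2A2 on chromosome 7 (largest adjusted p = 0.00112, two-sided sign-flip permutation test, exact for mH2A2). They were below other gene bodies in every list but 1 mH2A2 list on chromosome 7 (largest adjusted p = 0.00195). The classes also differed in base composition: receptor gene bodies had 34.9% GC on chromosome 2 and 38.3% on chromosome 7, other gene bodies 44.1% and 43.4% and the remainder 38.3% and 39.7%.

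Gene by gene, 189 of the 287 receptor genes of chromosome 2 (65.9%) lay outside every domain of all 30 lists, against 26 of 236 on chromosome 7 (11.0%). This held for 4 of 13 and 2 of 58 other protein-coding genes. Of all 200-bp bins, 63.7% of the chromosome 2 cluster and 43.7% of its rest lay in no list, and 38.0% and 31.5% on chromosome 7. Genes span several bins, so these shares are not of the same kind. No receptor gene start of chromosome 2 was in a domain in most lists of either variant, whereas 10 starts on chromosome 7 were for mH2A1 and 21 for mH2A2. For other protein-coding genes this held for 1 of 13 starts on chromosome 2 for each variant, and for 10 of 58 (mH2A1) and 12 of 58 (mH2A2) on chromosome 7. The 876 receptor genes elsewhere in the genome that could be scored were covered to 15.3% ± 1.82 by mH2A1 and 13.1% ± 3.78 by mH2A2, against 3.87% ± 2.14 and 8.03% ± 3.99 for the 523 receptor genes of the clusters, given as a description without a test.

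The receptor genes with the widest cover lay on chromosome 7. The pseudogene Olfr647-ps1 (chr7:104167383-104168342) was covered in 19 of 19 mH2A1 lists (96.2% ± 9.78 of its body) and in 8 of 11 mH2A2 lists. Olfr650-ps1, a polymorphic pseudogene in the same array, was covered in 19 and 8 lists (82.3% ± 17.3 by mH2A1), and Olfr546-ps1 near the start of the cluster in 18 and 7 (93.8% ± 23.1). Among genes that code for a receptor, Olfr643 alone was reached by a domain in all 30 lists, with 12.8% ± 5.38 of its body covered by mH2A1 and 22.7% ± 11.4 by mH2A2. Its annotated body (chr7:103998800-104137405) is long and spans Ubqln5. Olfr544 was covered in 11 of 19 mH2A1 lists (42.1% ± 39.4) and 11 of 11 mH2A2 lists (83.6% ± 21.1). Olfr550 was covered in 17 and 9 lists (38.2% ± 22.5 by mH2A1 and 41.7% ± 27.1 by mH2A2), Olfr558 in 17 and 8 and Olfr552 in 16 and 10. These genes were picked for their values and carry no test.

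Other genes at or within the arrays held the longest and most constant domains. P2rx3, which spans the left border of the chromosome 2 stretch, was covered to 79.0% ± 16.6 by mH2A1 (39.7% to 95.7%, 19 of 19 lists) and 32.5% ± 15.5 by mH2A2. It lay in the longest mH2A1 domain, 61.4 kb (chr2:84973801-85035200, also over Prg2 and Prg3, which code for eosinophil granule proteins), called in an untrained mouse at 1 h with 4107 ChIP and 3018 input reads. Its intron held the run of 3.6 kb called in every mH2A1 list (chr2:85001201-85004800, 50.5% GC), the longest such run of that cluster, which 8 of 11 mH2A2 lists also reached. mH2A2 had no bin called in every list on chromosome 2, and its longest domain there was 29.8 kb (chr2:85046401-85076200) over Ssrp1, a subunit of the histone chaperone FACT, and Tnks1bp1.

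The highest ratio of ChIP to input reads in a domain of the chromosome 2 cluster was 2.63 for mH2A1 (284 ChIP and 108 input reads, chr2:85225401-85229200, between Lrrc55 and Olfr987) and 2.59 for mH2A2 (349 and 135 reads, chr2:89912601-89918000, between Olfr1257 and Olfr1258). On chromosome 7 it was 2.67 for mH2A1 (371 and 139 reads, chr7:107155401-107159400, between Olfr716 and Nlrp14) and 4.00 for mH2A2 (444 and 111 reads, chr7:108526601-108531000, at Gm5053). These regions lay in domains of 18 of 19, 9 of 11, 15 of 19 and 10 of 11 lists of their own variant. They were chosen as extremes over domains with at least 100 input reads.

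The longest domains of chromosome 7 lay at Ppfibp2, a liprin-beta gene, and Cyb5r2, a cytochrome b5 reductase gene. The mH2A1 domain was 26.2 kb (chr7:107598601-107624800) and the mH2A2 domain 21.2 kb (chr7:107742801-107764000), and all 19 and 11 lists of the variant had a domain there. The longest run called in every mH2A2 list was 3.4 kb, in Usp17le, a ubiquitin-specific protease gene (chr7:104770201-104773600). The longest runs in no list were 91.8 kb and 92.8 kb on chromosome 2 (chr2:90166601-90258400 for mH2A1 and chr2:90165201-90258000 for mH2A2) and 157.4 kb and 206.2 kb on chromosome 7 (chr7:105816401-105973800 over Gm4070 and chr7:106029001-106235200 over Gvin1, a large interferon-inducible GTPase gene). In these runs 89.8%, 88.9%, 86.3% and 86.0% of 100-base words occurred more than once, so that the lack of domains cannot be told apart from reads that could not be placed.

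The variants differed at single genes of chromosome 7 when lists were pooled over times. The pooled times are not alike, as only mH2A1 has lists of 6 h, and mH2A1 also pools both of its antibodies. Apbb1, which codes for an adaptor of the amyloid precursor protein, was covered to 0.254% ± 1.11 by mH2A1 (1 of 19 lists) and 46.2% ± 25.4 by mH2A2 (10 of 11). Its neighbour Smpd1, acid sphingomyelinase, was covered to 4.95% ± 21.6 (1 of 19) and 65.6% ± 37.5 (10 of 11), and Trim3 to 2.50% ± 7.48 (2 of 19) and 30.2% ± 21.5 (9 of 11). Ubqln5, a ubiquilin gene within the receptor array, was covered to 98.3% ± 6.20 by mH2A1 and 81.8% ± 40.5 by mH2A2. The genes of this paragraph were picked for these values, with no test, and the beta-globin genes Hbb-bs and Hbb-bt lay in a domain of at most 1 mH2A1 list and 3 mH2A2 lists.

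**Figure D3:**
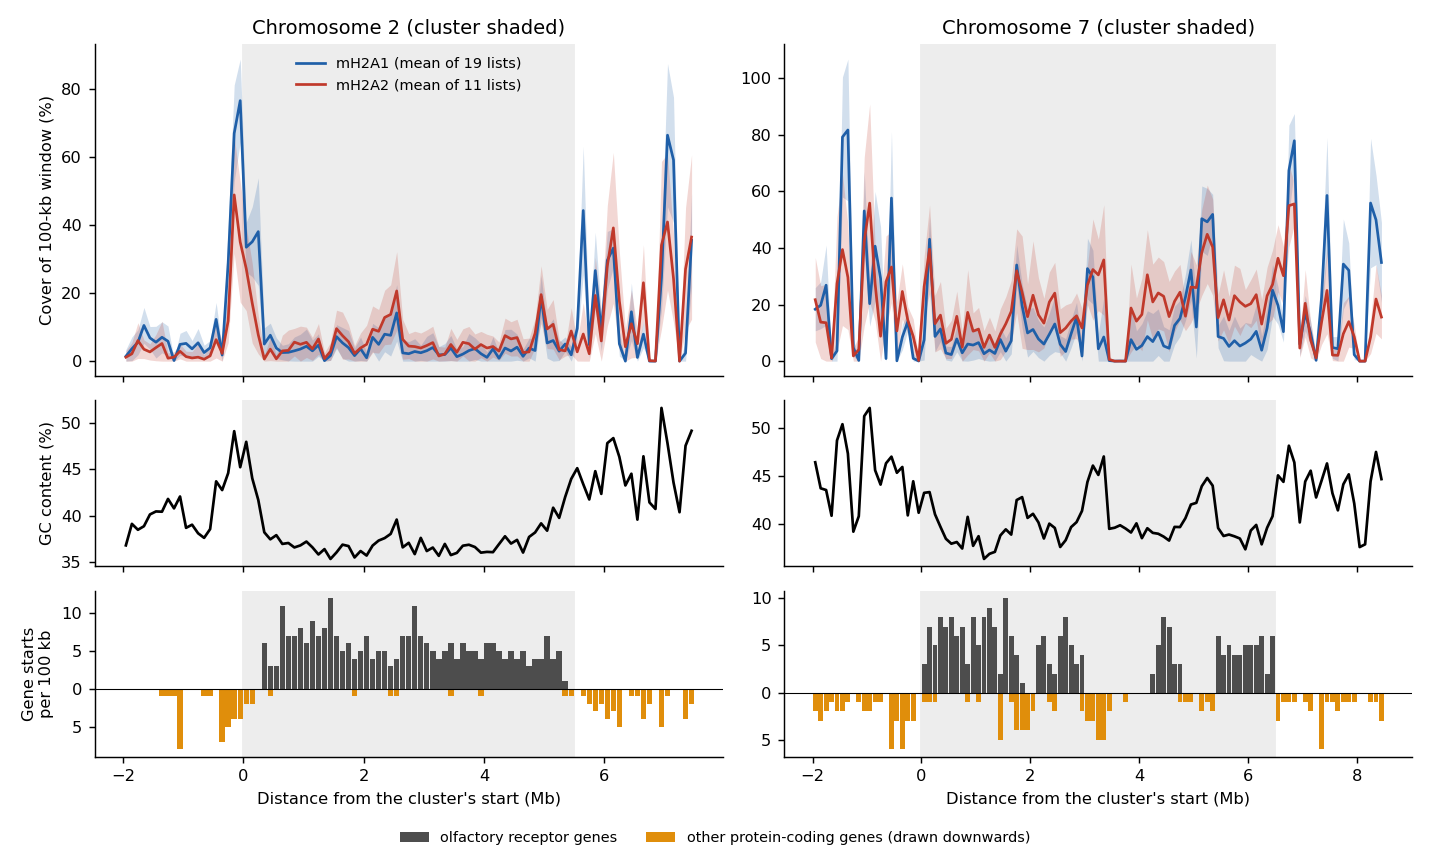
Mean cover of 100-kb windows (top, percent, blue mH2A1 and red mH2A2, shading ± SD over lists), GC content (middle, percent) and gene starts (bottom) against the distance from the start of each cluster (shaded). In the chromosome 2 cluster the 50 windows with at least 3 receptor gene starts averaged 4.03% mH2A1 cover and 37.0% GC, and the 4 windows with none 27.1% and 44.4%.

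Domains were shorter in the clusters than in the rest of their chromosomes. The mean length of an mH2A1 domain was 3886 ± 896 bp on chromosome 2 against 7665 ± 1757 bp in the rest (n = 19), and 4031 ± 744 bp against 7978 ± 2190 bp on chromosome 7. For mH2A2 it was 3542 ± 411 bp against 6084 ± 1008 bp and 3794 ± 282 bp against 5765 ± 638 bp (n = 11). The log2 ratio of lengths was -0.98 ± 0.11 and -0.95 ± 0.23 for mH2A1 (19 of 19 lists, adjusted p = 4e-05, permutation test) and -0.77 ± 0.19 and -0.60 ± 0.13 for mH2A2 (11 of 11 lists, adjusted p = 0.000977, exact test). The gap widened from -0.63 ± 0.10 at 30 min to -1.06 ± 0.12 later for mH2A1 on chromosome 7 (adjusted p = 0.000413, exact permutation test). The other differences in length, later minus 30 min, did not pass: -0.10 for mH2A1 on chromosome 2 (adjusted p = 0.128) and -0.01 and 0.08 for mH2A2 on chromosomes 2 and 7 (adjusted p = 0.900 and 0.354, exact permutation tests).

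The ratio of ChIP to input reads inside the called domains of the clusters was on average above that of the rest at 30 min and below it later. Summed over domains, mH2A1 gave 1.45 ± 0.0848 ChIP reads per input read in the chromosome 2 cluster and 1.39 ± 0.0676 in the rest at 30 min, 1.52 ± 0.257 and 1.73 ± 0.239 at 1 h, and 1.43 ± 0.0551 and 1.66 ± 0.0511 at 6 h. On chromosome 7 the values were 1.64 ± 0.162 and 1.49 ± 0.0814 at 30 min and 1.34 ± 0.0494 and 1.63 ± 0.0540 at 6 h. Reads were not scaled between libraries, and the scale cancels in the log2 difference between cluster and rest. That difference was 0.07 ± 0.05 and 0.13 ± 0.09 at 30 min (n = 5), -0.19 ± 0.07 and -0.22 ± 0.08 at 1 h (n = 4) and -0.22 ± 0.02 and -0.28 ± 0.02 at 6 h (n = 10, all lists negative). For mH2A2 it was 0.10 ± 0.04 and 0.11 ± 0.07 at 30 min (n = 5, all lists positive) and -0.15 ± 0.11 and -0.13 ± 0.06 at 1 h (n = 6).

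Pooled over times, the log2 difference was -0.14 ± 0.13 (adjusted p = 0.0044, permutation test) and -0.16 ± 0.19 (adjusted p = 0.00716) for mH2A1, and -0.03 ± 0.16 (adjusted p = 0.643) and -0.02 ± 0.14 (adjusted p = 0.663) for mH2A2 by the exact test. The pooled mH2A1 values turn at 30 min, as given above. Later lists minus 30 min lists differed by -0.28 and -0.39 for mH2A1 on chromosomes 2 and 7 (adjusted p = 0.000413) and by -0.25 and -0.25 for mH2A2 (adjusted p = 0.00742, exact permutation tests), and by -0.29 and -0.40 for mH2A1 without the 2 lists with the conflicting antibody label. Input reads per kb of domain in the cluster, relative to the rest, were 0.798 to 0.952 at 30 min over both variants and clusters and 0.957 to 1.08 at the later times. This value moves with the ratio, and its part in the result was not tested.

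**Figure D4:**
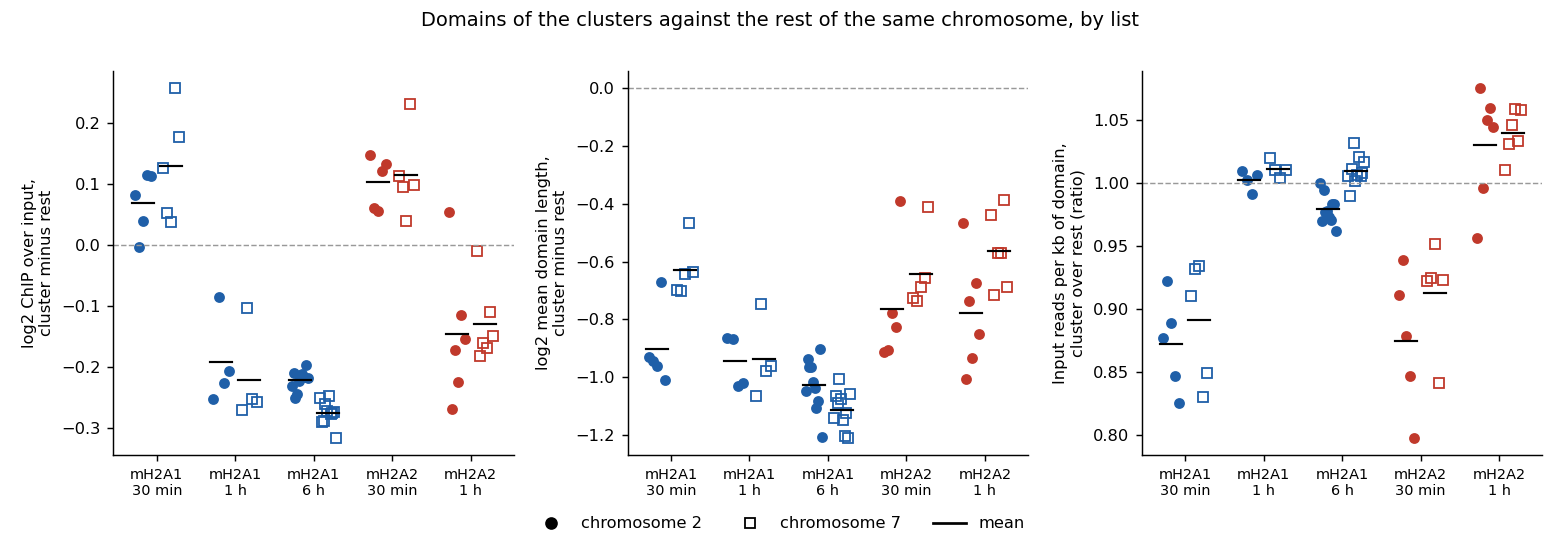
Difference between cluster and rest in log2 ChIP over input (left) and log2 mean domain length (middle), and input reads per kb of domain in the cluster over the rest (right), for each list by variant and time. Filled circles are chromosome 2, open squares chromosome 7 and bars means, and in the left panel the 6 h points lie between -0.20 and -0.32.

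Whether fear conditioning changed macroH2A in the clusters was asked within each time. No contrast of cover, as cluster minus rest, passed an adjusted p of 0.05 over 10 tests of variant, time and cluster. At 30 min the trained mice were higher by 8.39 points for mH2A1 on chromosome 7 (-0.324 ± 2.16 in 2 trained against -8.71 ± 2.12 in 3 untrained mice, groups that did not overlap) and by 12.8 points for mH2A2 (7.73 ± 7.91 against -5.05 ± 6.07, also without overlap). The exact permutation p was 0.2 for both, the smallest that 2 against 3 mice can give, and 0.8 after adjustment. On chromosome 2 the differences were 4.73 and 8.22 points with overlapping groups (exact permutation p = 0.4 for both). Cover of the chromosome 7 cluster alone was 19.1% and 19.5% in trained mice against at most 16.0% in untrained mice for mH2A1, and 27.6% and 32.7% against at most 26.0% for mH2A2. The rest of both chromosomes contributed to the differences as well: its mH2A2 cover was 25.4% and 19.4% in trained and 24.5%, 28.9% and 27.1% in untrained mice on chromosome 7.

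At 1 h the trained minus untrained differences were -3.30 and -3.14 points for mH2A1 (2 against 2 mice, where the smallest exact permutation p is 0.333, and with the antibody labels of the untrained lists in conflict) and -0.902 and -1.79 points for mH2A2 (3 against 3, smallest exact permutation p 0.1). At 6 h, with 5 against 5 mice, they were -0.512 ± 0.857 points on chromosome 2 (pooled SD, exact permutation p = 0.349) and 0.152 ± 1.03 points on chromosome 7 (exact permutation p = 0.825). The 6 h mice gave the narrowest spread of all contrasts. For log2 ChIP over input, trained mice at 30 min were higher for mH2A1 without overlap in both clusters, by 0.07 on chromosome 2 (0.11 against 0.04) and 0.14 on chromosome 7 (0.22 against 0.07), each at the smallest possible exact permutation p of 0.2 (adjusted p = 0.667). The 6 h difference on chromosome 2 was 0.02 ± 0.01 (exact permutation p = 0.0476, adjusted p = 0.476), the lowest adjusted p of the 10 ratio contrasts. Mean domain length was compared inside the clusters alone and not against the rest of the chromosome. A change shared with the rest would therefore appear here too. For mH2A2 at 1 h it was 3098 bp in trained and 3833 bp in untrained mice on chromosome 2, without overlap. On chromosome 7 it was 3546 and 4129 bp, also without overlap (exact permutation p = 0.1 for both, adjusted p = 0.25).

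A finer test used every 100-kb window of the genome with domains in at least 2 lists. With limma, 0 of 20464 windows (0%) passed an adjusted p of 0.05 for mH2A1 at 30 min, 0 of 19047 (0%) at 1 h and 0 of 20007 (0%) at 6 h, and for mH2A2 0 of 19952 (0%) at 30 min and 0 of 20986 (0%) at 1 h, none of them in the clusters. At an unadjusted p under 0.05, the windows of the chromosome 2 and 7 clusters numbered 0 of 55 and 11 of 61, 1 of 44 and 3 of 50, 1 of 51 and 3 of 58, 0 of 52 and 11 of 62, and 2 of 51 and 0 of 60 in the same order. The shares over all windows were 12.1%, 4.58%, 6.12%, 7.91% and 2.34%. Windows of one cluster lie side by side and are not independent. At 30 min, 51 of 61 windows of the chromosome 7 cluster were higher in trained mice for mH2A1 and 59 of 62 for mH2A2, against 40.9% and 39.6% of all windows, and at 1 h 5 of 50 and 13 of 60 were higher, against 46.8% and 29.4%.

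The variants were compared at matched times. At 30 min, within the same mice, mH2A1 minus mH2A2 in cover, as cluster minus rest, was -2.79 ± 5.80 points on chromosome 2 (mH2A1 higher in 2 of 5 mice) and -5.41 ± 7.07 points on chromosome 7 (1 of 5 mice), with exact sign-flip permutation p of 0.375 and 0.188, where 0.0625 is the smallest possible. At 1 h the difference was -7.89 ± 4.29 points on chromosome 2 (pooled SD, 4 against 6 mice, exact permutation p = 0.0381, adjusted p = 0.152) and -3.21 ± 5.47 points on chromosome 7 (exact permutation p = 0.381). For log2 ChIP over input at 30 min, mH2A1 was below mH2A2 in 5 of 5 mice on chromosome 2, by -0.03 ± 0.03 (exact permutation p = 0.0625, adjusted p = 0.125), and above it in 3 of 5 on chromosome 7. None of the 8 comparisons passed after adjustment.

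RNA was then examined for the genes of the clusters. Defining markers of CA1 pyramidal neurons were present, with Wfs1 between 150 and 523 CPM (counts scaled to the library total) and Mpped1 between 80.2 and 418 CPM in the 9 depletion libraries. Markers of olfactory sensory neurons were mixed. Omp reached 1.13, Cnga2 0.314, Cnga4 1.00, Stoml3 0.745, Rtp1 0.520 and Rtp2 0.372 CPM. Gng13 (3.71 to 14.6 CPM) and Ano2 (0.574 to 10.7 CPM) reached higher levels. Gnal, Ric8b and Adcy3, which brain also uses, were above 33 CPM. Olfactory receptor RNA was close to the limit of detection. In the depletion experiment 269 of 523 receptor genes of the clusters (51.4%) had no count in any of 9 libraries of 9.95 to 18.8 M counts. This held for 30.9% of the genes not named Olfr. Of the receptor genes, 50 had at least 10 counts in total. The receptors together gave 5.29, 3.12 and 58.6 CPM in the shScramble libraries, 3.56, 11.4 and 27.8 CPM in the libraries labelled shH2afy and 10.6, 1.60 and 5.89 CPM in those labelled shH2afy2. The third shScramble and the third shH2afy library stood above the others, in 187 and 150 receptor genes with counts against 19 to 99, so the groups overlapped. The 5 receptor genes with the highest mean were Olfr1033 (0.384 CPM, 3 to 10 counts per library), Olfr484 (0.335), Olfr1175-ps (0.319), Olfr1259 (0.316) and Olfr550 (0.251). In the second experiment 335 of 408 listed receptor genes (82.1%) were at 0 in all 12 libraries of 81.4 to 92.2 M counts, against 6.65% of listed genes not named Olfr. The summed level of the receptors was 1.91 to 4.83 CPM.

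The targeted genes were checked first. In the depletion experiment H2afy was at 42.2 to 49.2 CPM in shH2afy and 49.8 to 56.1 CPM in shScramble libraries (log2 fold change -0.37, adjusted p = 0.0310, edgeR), and H2afy2 at 7.45 to 12.4 CPM in shH2afy2 against 16.8 to 17.9 CPM (-0.95, adjusted p = 0.0907). Neither passed the threshold used for that experiment. The paper reports lower mRNA and protein of each target in infected tissue, from measurements other than these libraries. In the second experiment Macroh2a1, the newer name of H2afy, was higher in the libraries labelled shH2afy of untrained mice (95.2 to 99.4 CPM against 73.1 to 76.0 CPM, log2 fold change 0.13, adjusted p = 0.0868), which goes against the label, so directions there rest on the labels alone. Reads of that experiment were counted over whole transcripts with introns. Cells infected and RNA per infected cell cannot be told apart in bulk tissue.

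In the libraries labelled shH2afy a block of Trim genes and of predicted genes on chromosome 7 was higher. Of 745 annotated cluster genes, 42 passed the filter on low counts, none of them an olfactory receptor gene, and 13 rose past adjusted p under 0.01 and a fold change over 2 while 0 fell. The background over all 16179 genes tested was 10.5% higher and 1.2% lower. The 42 genes had a median log2 fold change of 0.29 against 0.01 over all genes. All 13 lie on chromosome 7: Trim30a, Trim30b, Trim30d, Trim34a, Trim12a, Trim12c, Trim5 and Trim21, which code for tripartite motif proteins of innate immunity, Gvin1, Gm4070, Gm1966 and Gm8995, and Tpp1, a lysosomal peptidase.

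Trim30a reached 1073, 1356 and 708 counts with shH2afy and 22, 25 and 19 counts with shScramble. The groups were far apart (log2 fold change 5.37 ± 0.25 SE, adjusted p = 5.62e-05, edgeR quasi-likelihood test). Trim21, which binds antibodies in the cytosol, had 358, 476 and 201 against 20, 22 and 19 counts (3.87 ± 0.32, adjusted p = 0.000301, edgeR). Gvin1 had 23, 39 and 23 against 1, 1 and 0 counts (5.01 ± 0.54, adjusted p = 0.000724, edgeR). Tpp1 had 2067, 2427 and 1459 against 887, 935 and 534 counts, the smallest change of the 13 (1.17 ± 0.15, adjusted p = 0.00123, edgeR). Trim30a, Trim30b and Trim30d, Trim12a and Trim12c, and Gvin1 and Gm4070 are close copies among which counting could split reads, so single values are uncertain. Apbb1, covered by mH2A2 and hardly by mH2A1 as given above, was lower (3426, 4766 and 3826 against 6577, 7492 and 3937 counts, -0.74 ± 0.12, adjusted p = 0.00344, edgeR) without reaching the fold threshold. Genes with macroH2A domains did not share 1 direction, as Ppfibp2 was higher, also short of the threshold.

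With mH2A2 depletion 0 of 38 cluster genes passed by edgeR, and the background over 15609 genes was 0% higher and 0% lower. Of the 38, 10 had an unadjusted p under 0.05, among them Stim1, a calcium sensor (972, 817 and 701 against 1490, 1666 and 978 counts, -1.05 ± 0.19, adjusted p = 0.0739, edgeR), and Trim30a (85, 211 and 44 against 22, 25 and 19 counts, 1.95 ± 0.53, adjusted p = 0.116). DESeq2 called these 2. The background of 0% is that of edgeR, and DESeq2 also called genes outside the clusters, as counted in the last paragraph. A difference between the effects of both depletions, which share the shScramble libraries, was not tested.

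In untrained mice of the second experiment, 49 cluster genes, 6 of them receptor genes, passed the filter. In the libraries labelled shH2afy, 21 were higher and 5 lower at adjusted p under 0.05 and a fold change over 1.2, against a background of 25.2% higher and 18.5% lower over 15799 genes. Trim30a was again among them (6277, 9382 and 10688 against 1384, 1622 and 1085 counts, 2.47 ± 0.22, adjusted p = 0.000184, edgeR), as were Gm4070, Trim30d and Gvin1. Besides these Trim5, Trim6, Trim12a, Trim12c, Trim21, Trim30b, Trim34a and Trim34b rose, as did Tpp1, Cavin3, Ppfibp2, Aplnr, Cyb5r2, Rrp8 and Hpx. Of these, Cyb5r2, Ppfibp2, Aplnr and Hpx had mH2A1 domains in their bodies in at least 18 of 19 lists and Gvin1 and Gm4070 in none. This remark picked single genes, was made after the values were seen and was not tested. Of all protein-coding genes of the clusters other than receptors, changed or not, 19 of 58 on chromosome 7 and 5 of 13 on chromosome 2 were reached in most mH2A1 lists. In the runs without a domain over Gm4070 and Gvin1, described above, 86.3% and 86.0% of sequence words were repeated. The lack of domains at Gm4070 and Gvin1 therefore cannot be told apart from reads that could not be placed.

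Of the 6 receptor genes tested, 2 were past the threshold, Olfr1033 and Olfr658. Both were higher, as were 25.2% of all 15799 genes tested. Olfr1033 reached 139, 170 and 221 counts with shH2afy and 86, 103 and 73 with scramble (0.80 ± 0.22, adjusted p = 0.0189, edgeR), and its gene body lay in mH2A1 domains of 6 of 19 lists. Olfr658 had 14, 15 and 20 against 4, 8 and 4 counts (1.39 ± 0.38, adjusted p = 0.0212, edgeR), a level of 0.191 against 0.0605 CPM. Both are low, and the other tested receptors, Olfr558, Olfr690, Olfr691 and Olfr78, had an adjusted p of at least 0.208 (edgeR). Fam160a2, Taf10, Trim3, Apbb1 and Cnga4, a subunit of the olfactory cyclic nucleotide-gated channel (15, 15 and 18 against 26, 29 and 18 counts), were the 5 lower genes. This split rests on the scaling: library sizes without TMM shifted the median of all genes by 0.25 on the log2 scale, and then 27 cluster genes were higher and 0 lower, with 6455 of all genes higher and 1060 lower instead of 3984 and 2921. In the depletion experiment the same change shifted the median by 0.16 and gave 14 higher and 0 lower.

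With the scramble virus, training changed 0 of 48 cluster genes, 5 of them receptor genes, by edgeR and by DESeq2. The background by edgeR was 0% higher and 0% lower over 15424 genes. DESeq2 did call genes outside the clusters, as counted in the last paragraph. Of the 48, 2 had an unadjusted p under 0.05, Rrp8 (386, 422 and 385 counts in trained against 333, 285 and 339 in untrained mice) and Ppfibp2 (2243, 2850 and 2502 against 2961, 2890 and 2770). Olfr1033 had 35, 143 and 71 counts in trained and 86, 103 and 73 in untrained mice. The groups overlapped for Ppfibp2 and Olfr1033 and not for Rrp8.

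**Figure D5:**
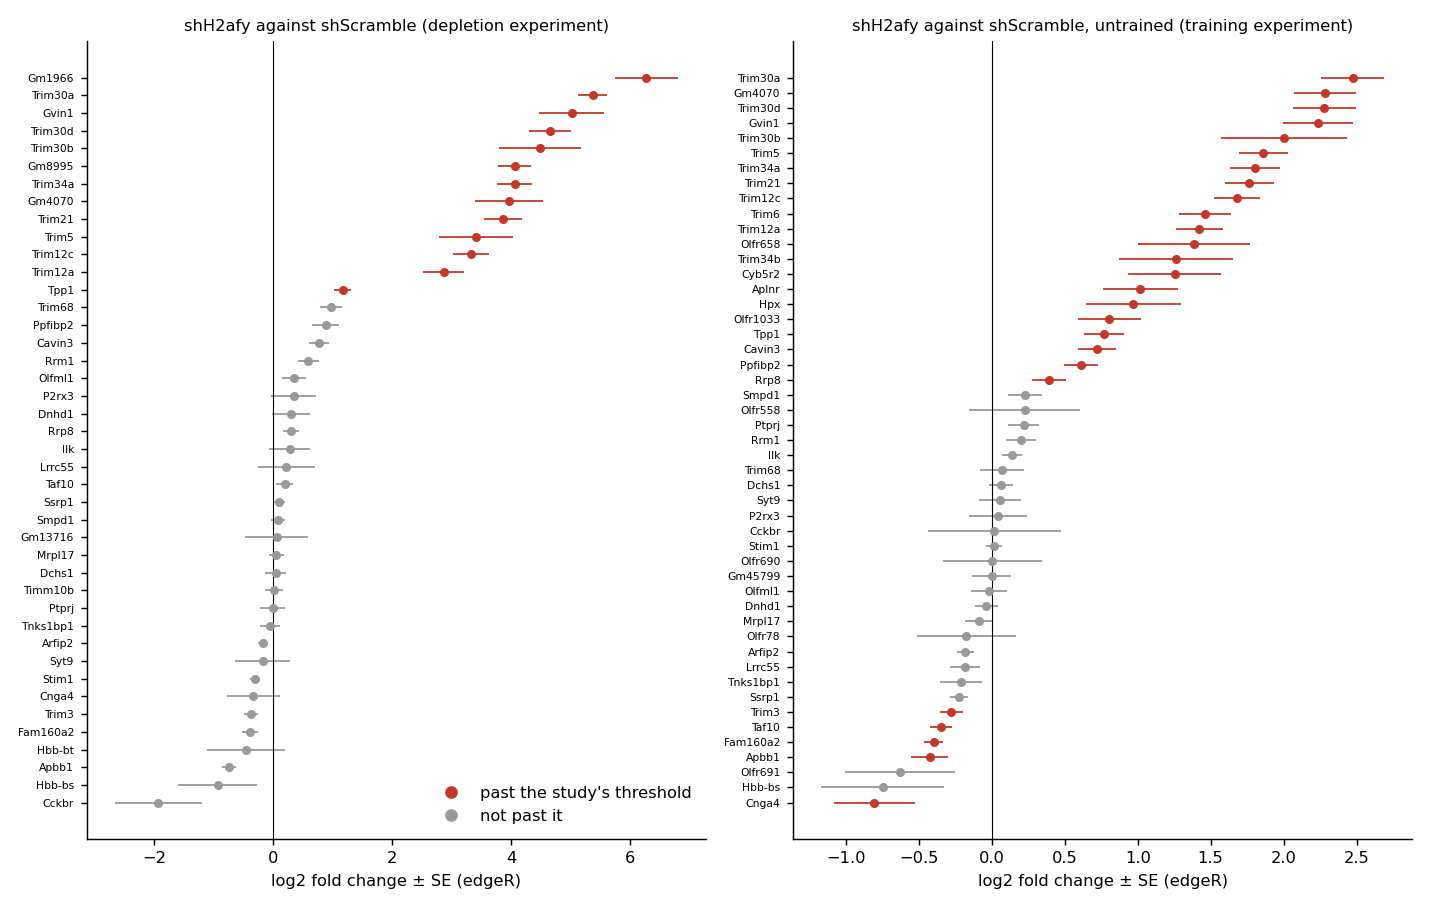
Log2 fold change ± SE (x axis) of each cluster gene that passed the filter, for shH2afy against shScramble in the depletion experiment (left, 42 genes) and in untrained mice of the second experiment (right, 49 genes). Red genes passed the threshold of their experiment, 13 at the left, all higher, and 26 at the right, 5 of them lower.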

How the data were processed

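MacroH2A domain lists were deposited by the authors as whole-number read counts of ChIP and input per domain, with a false discovery rate (adjusted p-value) of at most 0.05 and a log2 fold change. Reads had been aligned to mm10 with Bowtie2 and broad domains called per mouse in 200-bp bins, with epic2 in the study's methods and SICER in the submitters' processing notes. RNA counts per gene were deposited raw by the authors, from STAR and featureCounts in those notes, over whole transcripts in the training experiment. No column of another sample was present (0).

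Cover, mean domain length and summed ChIP over input were computed per list in the clusters and in the rest of the same chromosome. Lists were compared by two-sided sign-flip or label permutation tests, exact or with 100000 resamples, and by the Benjamini-Hochberg adjustment within each family. Windows of 100 kb were tested with limma 3.58.1, and RNA with edgeR 4.0.16 (quasi-likelihood) in R 4.3.3, with DESeq2 1.42.0 as an alternative. RNA thresholds followed the study: adjusted p under 0.01 and a fold over 2 in the depletion experiment, 0.05 and 1.2 in the training experiment. Other steps used Python 3.11.15 and SciPy 1.17.1, with GRCm38.p6, GENCODE genes and RefSeq promoters. Named regions were the longest runs and domains and the highest ratios among domains with at least 100 input reads. Tests were tried on simulated data, where 84% and 99.5% of 200 genes changed 4-fold were recovered in the shH2afy comparison of the depletion and of the training experiment, and 90% of 200 windows changed by 15 points for mH2A1 at 6 h.

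Members and lists were chosen with earlier results of these data known. Each mouse was counted as 1 replicate, and replicate p-values measure only the spread between these samples. No 2 lists held the same ChIP counts, with at most 3.92% of them equal in any pair, while 5 pairs of the same mouse at 30 min shared all input counts. Same-numbered trained and untrained lists had correlations of their deviations between -0.51 and 0.06, so numbers were not used as pairs. The authors' own comparisons were not used. 1 region of chromosome 7 is not reported here.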

Additional observations from a re-analysis of the deposited data

Results flagged for a closer look

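Of 12 differences between the later times and 30 min, 8 passed an exact permutation test after adjustment, each as the later lists minus the 30 min lists of cluster minus rest. Cover differed by -13.3 points (mH2A1, chromosome 2, adjusted p = 0.000413), -14.0 points (mH2A1, chromosome 7, adjusted p = 0.000413) and -14.8 points (mH2A2, chromosome 7, adjusted p = 0.0260). The log2 ratio of ChIP to input differed by -0.28 and -0.39 for mH2A1 on chromosomes 2 and 7 (exact permutation test, adjusted p = 0.000413) and by -0.25 and -0.25 for mH2A2 (adjusted p = 0.00742). Log2 mean length of mH2A1 domains on chromosome 7 differed by -0.43 (exact permutation test, adjusted p = 0.000413). The experiments at each time, and for mH2A1 the antibodies, cannot be told apart from time. The share of the genome in called domains also differed between the times, and its part was not tested.

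In the RNA of mice without virus, which no comparison used, Olfr558 had 15, 12 and 11 counts in untrained and 14 and 26 in trained mice, the lowest being 11. There, 390 of 412 receptor genes of the clusters (94.7%) were at 0 in all 5 libraries, against 16.8% of genes not named Olfr. Dixon's test was run only on the mH2A1 groups of 6 h, with 5 lists each. Of 20 combinations of group, cluster and measure there, 0 held a list that stood apart from its group. All other groups were too small for this test and were not checked.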

How the results depend on the processing

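Of 699 values over 49 results, 641 kept their direction and side of the threshold, or moved by less than the replicate spread. The experiments taken separately, the GC weighting, bins of unique words, the crossed pairing and library sizes without TMM were chosen after seeing the data.

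Against the rest of the chromosome, mH2A2 cover on chromosome 7 was -6.79 points with domains at FDR under 0.001, -9.47 with untrained lists alone and 3.67 against all autosomes, where its log2 ratio was 0.052. At 30 min alone cover was -7.75 and -5.36 for mH2A1 and 0.058 for mH2A2 on chromosome 7, the mH2A1 ratio 0.068 and 0.13, and the mH2A1 length on chromosome 7 -0.63. At 1 h alone mH2A2 gave -12.1 and -14.8 points and lengths of -0.78 and -0.56, without passing after adjustment (exact permutation tests, adjusted p = 0.0625). The GC weighting gave 0.074 and -1.88 for mH2A1 and 3.44 and 3.80 for mH2A2. The cause was not tested.

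Leaving out 1 list moved mH2A2 cover on chromosome 7 between -10.2 and -6.87, and the call was lost without any of 7 lists, among them untrained replicates 2 and 3 of 30 min (-8.22 and -7.78), untrained replicates 2 and 3 of 1 h (-6.87 and -6.99) and trained replicates 1, 2 and 3 of 1 h (-6.87, -7.71 and -7.23). The training difference at 30 min for mH2A1 on chromosome 2 ranged from 1.199 to 8.26, at 6 h on chromosome 7 from -0.139 to 0.572 (below 0 without 4 of the 10 lists: -0.105, -0.0532, -0.139 and -0.0494), the 6 h ratio from -0.0123 to 0.00476 (0.000449 and 0.00476 above 0), and the mH2A2 ratio at 30 min from 0.0156 to 0.149. Where 1 list was left in a group, these are values without a test.

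The 6 h chromosome 7 training difference was -0.608 against all autosomes, -0.471 for cover alone and -0.279 with the GC weighting. The 30 min differences were 0.904 and 5.01 (mH2A1) and 2.59 (mH2A2, chromosome 2) for cover alone, and 1.06, 4.08 and 2.85 with the GC weighting. Their ratios were 0.119, 0.0806 and 0.0133 at FDR under 0.001, and 0.0263, 0.223, -0.0385 and 0.173 against all autosomes. Between variants, all autosomes gave -8.12 and -10.8 points at 1 h (exact permutation test, adjusted p = 0.0190), and the 30 min ratio was 0.000115 at FDR under 0.001 and 0.0183 and -0.0527 against all autosomes.

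With the replicate number as a block, training gave 9.01 points for mH2A1 and 10.0 points for mH2A2 on chromosome 7 at 30 min, 0 windows, and 11 and 20 genes of the clusters with shH2afy in the depletion and training experiments instead of 13 and 26. Trim5 and Trim30b were no longer called in the first, and Apbb1, Cnga4, Hpx, Olfr658, Rrp8 and Trim34b in the second, while no call on cover, ratio or windows changed. The mH2A1 lists of 1 h deviated with r = -0.16, and the crossed pairing also called 0 windows. Over all genes, mH2A1 depletion called 1885 genes and 1146 with the block, mH2A2 depletion 0 by edgeR against 127 by DESeq2 and 327 without the filter, and training 0 against 211 by DESeq2. In the clusters DESeq2 called 2 and no filter 5 genes with mH2A2 depletion. Without 1 library 10 to 16 and 19 to 26 genes were called. Few lists per group and domains that are counted, not scaled, limit the precision.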
